A study of Talinum fruticosum with 36 samples.

Results

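The transcripts described here are those of 6 malate carriers, followed in leaves of Talinum triangulare, a succulent herb that switches from C3 photosynthesis to crassulacean acid metabolism (CAM) when water is withheld. They were chosen by name, as the Arabidopsis loci AT2G22500 (DIC1), AT4G24570 (DIC2), AT5G09470 (DIC3), AT5G19760 (DTC), AT5G47560 (TDT) and AT3G18440 (ALMT9). They are 6 of the 21869 loci to which the authors assigned Talinum reads, and all 6 were among the 14052 loci that passed the filter on low counts. TDT passed that filter through its counts on day 12 of drought. It is therefore left out of the counts of members called in comparisons of day 12 with another stage. No p is given for it there. The closing tallies on how the results depend on the processing include it and say so. In a second table, of contigs assembled from the same species, 10 of 39781 contigs carried the ID of one of the 6 loci.

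The study measured polyA RNA of mature leaves by RNA-seq, with 3 libraries in each of 10 groups. Plants had been watered for 28 days and then received no water for 0, 4, 9 or 12 days, or for 12 days followed by 2 days of re-watering. Each stage was sampled in the middle of the day, 6 h into the light period, and in the middle of the night, 6 h into the dark period, called midday and midnight here. The labels give the photosynthetic mode as CAM for days 9 and 12 and as C3 for day 0, day 4 and re-watered plants, and the organism field names Talinum fruticosum where the protocols name T. triangulare. No genotype, transgene or chemical treatment is given. The libraries are called biological replicates, but whether each came from 1 plant or from several was not given in the sources used here, so the p-values measure the spread between these libraries. No group was kept watered to the later days, so drought, plant age and sampling day cannot be told apart.

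CAM plants fix carbon dioxide at night into malate and store the acid in the vacuole. By day the malate leaves the vacuole and is decarboxylated, and the carbon dioxide enters the Calvin-Benson cycle behind closed stomata. One of the decarboxylating enzymes, NAD-malic enzyme, lies in the mitochondrial matrix, so malate has to cross the inner mitochondrial membrane to reach it. In Arabidopsis, DIC1, DIC2 and DIC3 are inner membrane carriers that exchange dicarboxylates such as malate, and DTC exchanges dicarboxylates such as malate and 2-oxoglutarate for tricarboxylates such as citrate. TDT is the tonoplast dicarboxylate transporter of the vacuolar membrane, and ALMT9 is a channel of the aluminium-activated malate transporter family in the same membrane, which in Arabidopsis guard cells carries chloride when malate is present on the cytosolic side.

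Levels are given as per-million counts (CPM) with library sizes scaled by the TMM method, and library totals ran from 4266915 to 8756533 counts. The scaling factors ran from 0.718 to 1.142 at midday and from 1.03 to 1.334 at midnight. Every library correlated with the others of its group at a mean r of 0.962 to 0.988. The lowest values belonged to re-watered midday replicate 3 and day 0 midnight replicate 3, which carried the labels of their groups and were left out together in an added alternative. All 5 mesophyll markers of the leaf check were in the table, and their summed level was 43701 CPM or more in every library. Differences are log2 fold changes from edgeR's quasi-likelihood fit over all 30 libraries. The fit gives no SE, so the SE printed is the size of the log2 change divided by the square root of its test's F statistic. A locus was called at a Benjamini-Hochberg adjusted p under 0.05 over the 14052 loci. In bulk leaf RNA, fewer cells of a type and less RNA per cell cannot be told apart.

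The 3 mitochondrial dicarboxylate carrier loci rose by day and fell by night as drought went on. By day 12 they rose 11.6- to 14.1-fold at midday and fell 7.51- to 11.9-fold at midnight, and after re-watering they lay between at midday. At midday of day 0, the DIC1 libraries held 49.3, 78.4 and 72.6 CPM, and on day 4 they held 178.8, 72.7 and 98.9 CPM. On day 9 they held 893.9, 808.7 and 842.5 CPM, on day 12 801.7, 920.2 and 865.0 CPM, and in re-watered plants 197.5, 315.7 and 217.2 CPM. The day 0 and day 4 ranges overlapped, those of days 9 and 12 overlapped each other and lay above all the rest, and the re-watered libraries lay between. The means were 66.8 ± 15.4 CPM (SD, n = 3) on day 0, 862.3 ± 59.3 on day 12 and 243.5 ± 63.3 after re-watering.

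At midnight the order was turned round. The DIC1 libraries held 12.3, 10.96 and 6.92 CPM on day 0, 11.5, 6.74 and 6.64 on day 4, and 6.92, 1.61 and 4.71 on day 9. They held 1.42, 1.08 and 1.44 CPM on day 12 and 2.06, 3.11 and 6.80 CPM after re-watering. The 3 libraries of day 12 lay below every other midnight library, while each of the other midnight groups overlapped its neighbour in the order of the means. The highest group mean of DIC1, at midday of day 12, was 655.4 times the lowest, at midnight of the same day.

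DIC2 had the same order of group means, and so had DIC3, except that its re-watered midnight mean lay above that of day 9 at midnight. DIC2 held 65.4, 101.4 and 88.1 CPM at midday of day 0 and 891.2, 1085.6 and 979.4 CPM at midday of day 12, against 1.29, 1.33 and 2.01 CPM at midnight of day 12. DIC3 held 17.2, 30.1 and 24.8 CPM at midday of day 0 and 302.4, 365.2 and 351.5 CPM at midday of day 12. At midnight of day 12 its 3 libraries had 5, 3 and 1 counts, so this value rests on 9 counts in all. After re-watering DIC2 stood at 292.6 ± 77.9 CPM at midday and 5.83 ± 2.66 CPM at midnight, and DIC3 at 93.4 ± 17.5 and 2.23 ± 0.745 CPM (SD, n = 3 each).

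**Figure D1:**
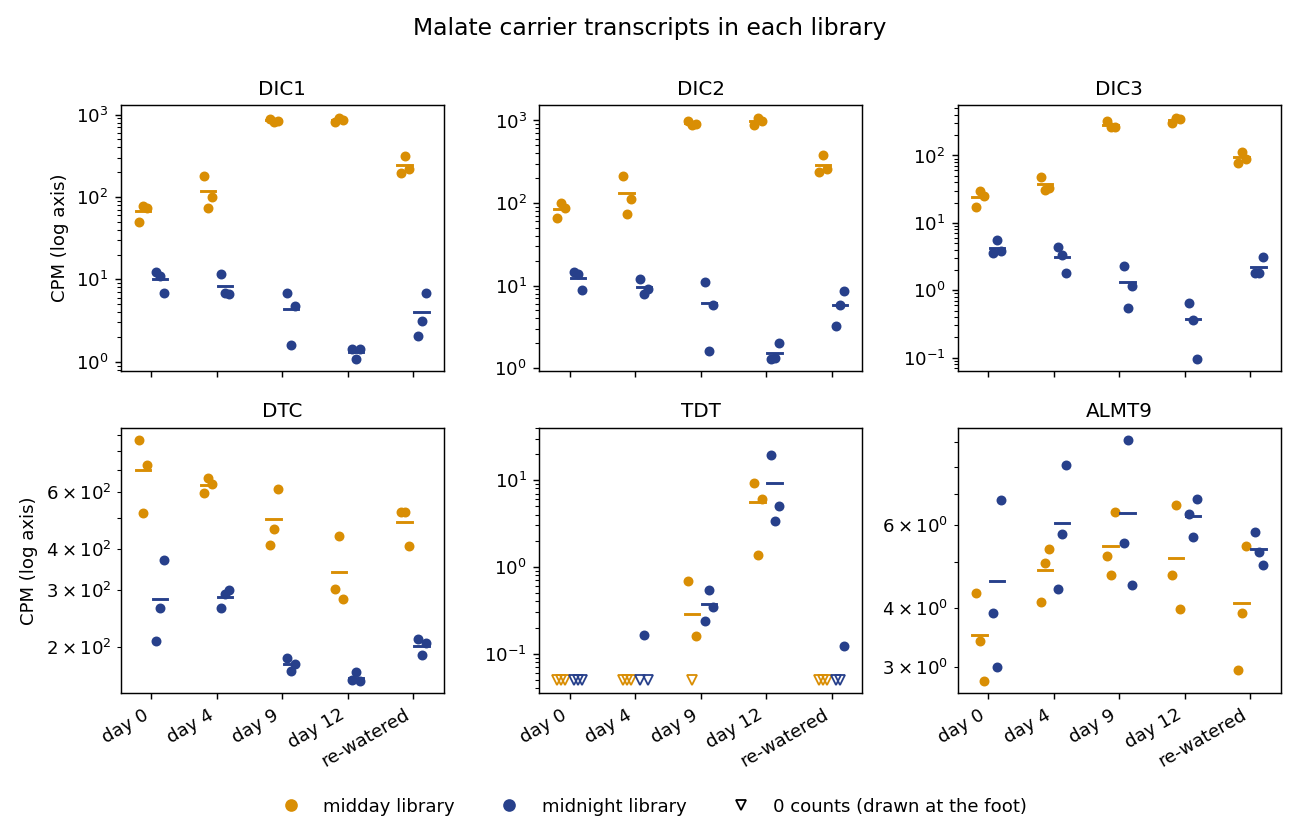
Level of each of the 6 loci in each library (points, CPM on a log axis) by stage, at midday and at midnight, with a bar at the mean of the 3 libraries where it exceeds 0.1 CPM and open triangles at the foot for libraries with 0 counts. The DIC loci part furthest on day 12, where DIC1 lies at 801.7 CPM or above in the midday libraries and at 1.44 CPM or below in the midnight libraries, while ALMT9 stays between 2.79 and 9.12 CPM in all 30 libraries.

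At midday the DIC loci were higher than on day 0 by day 9 and were near one level on days 9 and 12. On day 4 the midday differences were not called (DIC1 0.81 ± 0.33, adjusted p = 0.599; DIC3 0.64 ± 0.25, adjusted p = 0.573). Of the 6 members, 0 were called by edgeR in that comparison, where 0% of all loci were, and DESeq2 and limma-trend also called 0 members; 2 members, DIC1 and DIC3, had an unadjusted p under 0.05, as did 1052 of all loci. On day 9 the rise was 3.67 ± 0.36 for DIC1 (adjusted p = 1.31e-08), 3.44 ± 0.39 for DIC2 and 3.57 ± 0.26 for DIC3. With DTC, which fell, these made 4 of 6 members called on day 9 at midday, beside 44.5% of all loci. Reads of 1 gene can be divided among the 3 DIC loci. In this and the later counts of members they may therefore not be 3 separate measurements. On day 12 it was 3.69 ± 0.36, 3.54 ± 0.40 and 3.82 ± 0.26 (adjusted p = 4.39e-09, 5.37e-08 and 4.85e-12), and 4 of the 5 members other than TDT were called beside 55.0% of all loci. Between days 9 and 12 at midday the DIC differences were 0.02, 0.10 and 0.25, and edgeR called 0 of the 5 members other than TDT, beside 8.40% of all loci. DTC, at -0.54 ± 0.20, was the 1 of the 5 with an unadjusted p under 0.05 (adjusted p = 0.0932), and it was called by DESeq2 (adjusted p = 0.0418) but not by limma-trend (0.077).

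At midnight the DIC loci fell in steps. On day 4 no member of the 6 was called by edgeR, DESeq2 or limma-trend, and 0 had an unadjusted p under 0.05, beside 0.185% of all loci called and 2019 loci at an unadjusted p under 0.05. On day 9 DIC3 fell by 1.66 ± 0.39 (adjusted p = 0.000999) and DIC1 by 1.16 ± 0.40 (adjusted p = 0.0194), while DIC2 had a difference of -1.01 ± 0.43 (adjusted p = 0.0531). That of DIC2 was called without day 9 midnight replicate 1 (-1.72, adjusted p = 0.00402) and with RLE scaling, unscaled totals, a filter at 5 CPM, limma-trend and DESeq2, among other alternatives, and was -0.65 without day 9 midnight replicate 2. DIC1 did not hold this call without day 0 midnight replicate 1 (adjusted p = 0.0627) or replicate 2 (0.0509), or without day 9 midnight replicate 2 (0.0839). In all, 3 of 6 members were called there, beside 48.6% of all loci. On day 12 DIC1 fell by 2.91 ± 0.47 (adjusted p = 1.20e-05), DIC2 by 2.97 ± 0.50 (2.17e-05) and DIC3 by 3.57 ± 0.50 (1.01e-06). In the same comparison 4 of the 5 members other than TDT were called, beside 57.6% of all loci. From day 9 to day 12 the midnight differences were -1.74 ± 0.51, -1.96 ± 0.53 and -1.91 ± 0.61 (adjusted p = 0.0347, 0.0239 and 0.0493). These were 3 of the 5 members other than TDT, beside 8.16% of all loci. All 3 DIC calls were lost without day 9 midnight replicate 1, where the values were -1.28, -1.25 and -1.29 (adjusted p = 0.204, 0.205 and 0.309), without replicate 3 of that group, or without day 12 midnight replicate 2 or 3, and those of DIC1 and DIC2 also without day 12 midnight replicate 1. With only the groups compared, the DIC2 call was lost (adjusted p = 0.103) and DIC3 did not pass the filter on low counts. Without day 9 midnight replicate 1 the day 9 value of DIC3 was -2.28. Without day 12 midnight replicate 1 its day 12 value was -4.20, and its value from day 9 to day 12 was -2.55.

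The day and night responses of the DIC loci differed. The interaction, which is the midnight change minus the midday change against day 0, was -4.83 ± 0.53 for DIC1, -4.45 ± 0.57 for DIC2 and -5.23 ± 0.45 for DIC3 on day 9. It was -6.60 ± 0.58, -6.51 ± 0.63 and -7.39 ± 0.53 on day 12. Without day 9 midnight replicate 1 the day 9 values of DIC2 and DIC3 were -5.16 and -5.85, and without day 12 midnight replicate 1 the day 12 value of DIC3 was -8.02. Each of the 6 values was called. On day 9 these were 3 of 6 members, beside 24.3% of all loci. On day 12 they were 3 of the 5 members other than TDT, beside 33.8% of all loci. On day 4 edgeR called 0 of the 6 interactions, as it did 0% of all loci, and DESeq2 and limma-trend called 0 members too. DIC1 and DIC3 had an unadjusted p under 0.05 there, as did 1326 of all loci.

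After 2 days of water the DIC loci stood between their day 0 and day 12 levels. Against day 12 at midday, DIC1 fell by 1.82 ± 0.33 (adjusted p = 6.56e-05), DIC2 by 1.75 ± 0.37 and DIC3 by 1.86 ± 0.24, and 4 of the 5 members other than TDT were called beside 47.7% of all loci. They stayed above day 0 at midday, by 1.87 ± 0.34 for DIC1 (adjusted p = 0.00251), 1.78 ± 0.37 for DIC2 (0.00624) and 1.96 ± 0.25 for DIC3 (0.000126). These were the 3 of 6 members called there, beside 6.85% of all loci, though they may not be 3 separate measurements. When the fit held only the groups compared, none of these 3 was called (smallest adjusted p = 0.0897). In that fit 0 of all loci were called, against 962 in the fit over all libraries. At midnight they rose from day 12, by 1.59 ± 0.52, 1.88 ± 0.53 and 2.64 ± 0.55 (adjusted p = 0.0155, 0.00597 and 0.000355), and 3 of the 5 members other than TDT were called beside 42.9% of all loci. The DIC1 call was lost without re-watered midnight replicate 3 (0.97, adjusted p = 0.181), and the DIC3 value was 3.27 without day 12 midnight replicate 1. Against day 0 at midnight DIC1 had a difference of -1.32 ± 0.41 (adjusted p = 0.025), the 1 of 6 members called beside 19.6% of all loci. That call was lost without day 0 midnight replicate 1 or 2 and without re-watered midnight replicate 1 or 2 (adjusted p = 0.0708, 0.0742, 0.123 and 0.1003), and without re-watered midnight replicate 3 the value was -1.94. DIC2 and DIC3 had differences of -1.09 ± 0.43 and -0.93 ± 0.36 (adjusted p = 0.0762 and 0.0679). The re-watered interaction was called for DIC1, DIC2 and DIC3, at -3.19 ± 0.53, -2.87 ± 0.57 and -2.89 ± 0.43, 3 of 6 members beside 6.26% of all loci. That of DIC1 was -3.81 without re-watered midnight replicate 3.

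**Figure D2:**
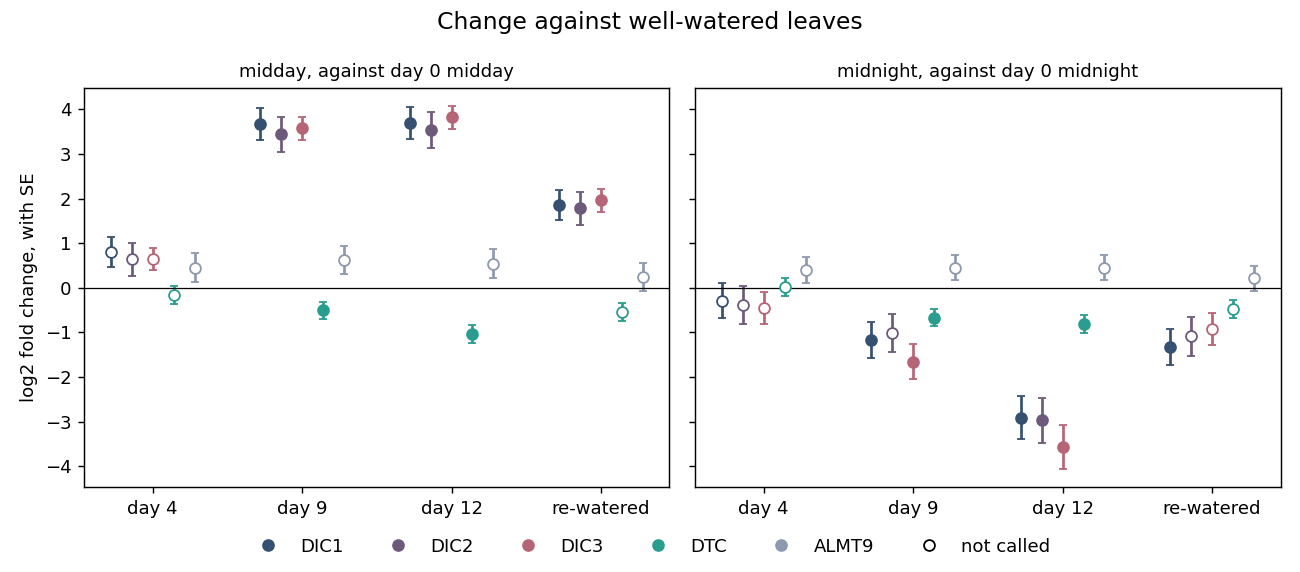
Log2 fold change against day 0 at the same time of day (points, with SE as bars) for DIC1, DIC2, DIC3, DTC and ALMT9 on days 4, 9 and 12 and after re-watering, at midday (left) and at midnight (right). Filled points were called. The DIC points lie between 3.44 and 3.82 on days 9 and 12 at midday and between -2.91 and -3.57 on day 12 at midnight, while DTC lies below 0 on both panels from day 9 on.

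The distance between night and day thus differed among stages. On day 0 the midnight level relative to midday was -2.73 ± 0.37 for DIC1, -2.77 ± 0.40 for DIC2 and -2.49 ± 0.29 for DIC3 (adjusted p = 1.53e-06, 5.27e-06 and 1.22e-07). On day 4 the values were -3.83, -3.79 and -3.58, on day 9 -7.56, -7.22 and -7.72, and on day 12 -9.33 ± 0.50, -9.27 ± 0.55 and -9.88 ± 0.40. After re-watering they were -5.92, -5.64 and -5.38. Each of these 15 differences was called, and with DTC 4 of 6 members were called in every stage, beside 43.9%, 41.9%, 49.5%, 54.7% and 47.1% of all loci from day 0 to re-watering. Midday and midnight libraries of these 4 members did not overlap in any stage. Over all loci they did not overlap for 42.3% on day 0, 55.3% on day 4, 62.1% on day 9, 63.1% on day 12 and 55.0% after re-watering. Without day 12 midnight replicate 1, which had 5 of the 9 DIC3 counts, the day 12 value of DIC3 was -10.51. Without day 9 midnight replicate 1, the day 9 values were -7.93 for DIC2 and -8.34 for DIC3, and without re-watered midnight replicate 3 that of DIC1 was -6.54.

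Whether the 3 DIC loci stand for 3 Talinum genes cannot be told from the locus counts. The counts kept nearly one ratio in all midday libraries, in which DIC1 took 37.4 to 41.9% of the summed DIC counts, DIC2 41.3 to 49.6% and DIC3 10.99 to 17.4%. The midnight libraries, with sums of 23 to 274 counts, spread more widely, from 2.70 to 25.5% for DIC3. Over the 10 group means the log2 levels of DIC1 and DIC2 had a Pearson r of 0.999, with libraries and depth in common, given as a description. The authors assigned each read to its best match among Arabidopsis proteins, so reads of 1 Talinum gene can be divided among related Arabidopsis loci. The sum of the 3 loci does not depend on that division. It was 175.8 ± 39.9 CPM at midday of day 0, 2187 ± 188 at midday of day 12 and 629.4 ± 158.5 after re-watering. At midnight it was 26.8 ± 6.35, 3.23 ± 0.407 and 12.1 ± 5.79 CPM (SD, n = 3 each). Fitted as 1 feature, the sum was lower at midnight than at midday 6.56-fold on day 0, 13.7-fold on day 4, 172.4-fold on day 9, 671.7-fold on day 12 and 52.1-fold after re-watering.

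**Figure D3:**
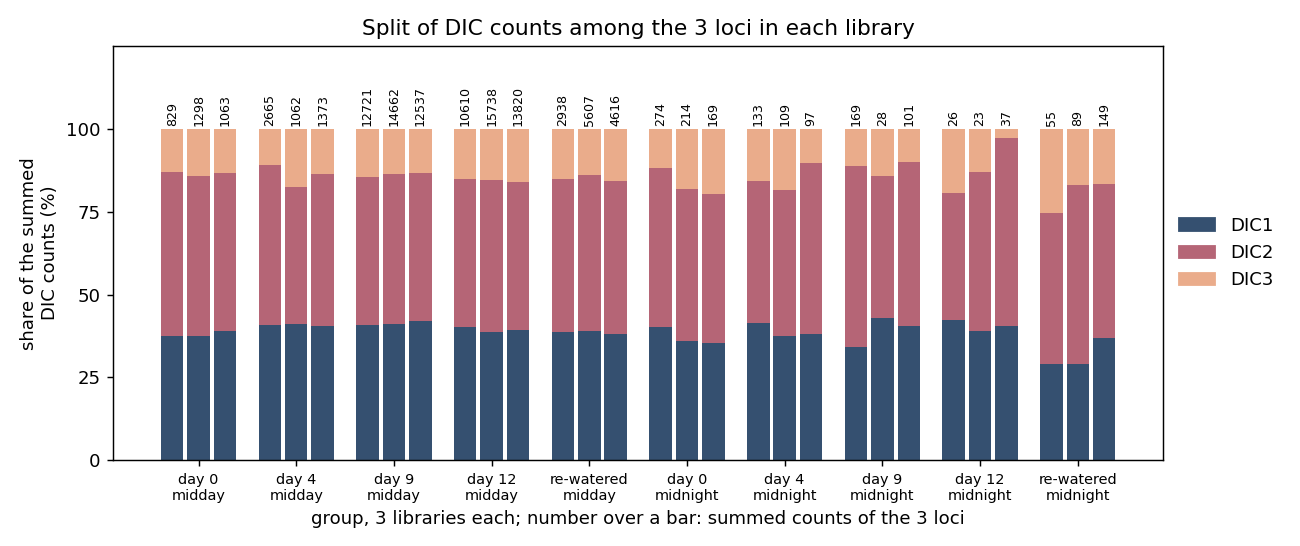
Share of the summed DIC counts taken by DIC1, DIC2 and DIC3 in each library (stacked bars, percent), grouped by stage and time of day, with the summed count over each bar. The midday bars are divided nearly alike, with DIC3 between 10.99 and 17.4%, and the midnight bars vary where the sums are small.

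The contig table holds 2 DIC contigs. Both, Tt28551 with 972 coding bases and Tt7993 with 957, carried the ID of DIC1, and no contig analysed here carried that of DIC2 or DIC3. The authors' mean per-million reads (RPM) of the 2 contigs added up to 0.906 to 1.07 times the summed RPM of the DIC1, DIC2 and DIC3 loci in every group. Tt28551 had 122.3 RPM at midday and 7.33 at midnight of day 0, a ratio of 16.7, and 1874 and 1.67 RPM on day 12. Tt7993 had 25.3 and 25.7 RPM at midday and midnight of day 0, a ratio of 0.987, and 120.3 and 1.67 RPM on day 12. In these RPM, which are not scaled by TMM, one contig was higher by day on day 0 and the other was level between day and night. On day 12 both were higher by day. The summed DIC loci had 137.6 RPM at midday and 33.4 at midnight of day 0, against 175.8 and 26.8 CPM with TMM scaling. The level ratio of Tt7993 on day 0 thus holds for unscaled RPM only, and scaled contig levels were not computed. After re-watering Tt28551 had 523 RPM at midday and 0.667 at midnight, and Tt7993 had 79.7 and 14.0 RPM.

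The authors' deposited table gives a test for each contig against day 0. At midday of day 12 it lists log2 changes of 3.43 for Tt28551 (q = 4.68e-07) and 1.92 for Tt7993 (q = 0.000184). In the authors' deposited table Tt7993 changed by -2.15 at midnight of day 9 (q = 5.42e-05), and the value of Tt28551 was 0.32 (q = 0.733). For midnight of day 12 the authors' deposited table lists -3.60 for Tt7993 (q = 1.10e-11) and -1.73 for Tt28551 (q = 0.0217). After re-watering, at midnight, the authors' deposited table lists -2.72 for Tt28551 (q = 0.00102) and -0.93 for Tt7993 (q = 0.156). The group means carry no error, and the difference between the 2 contigs was not tested.

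DTC, which exchanges malate or 2-oxoglutarate for citrate and related acids, was higher by day in every stage and fell with drought at both times of day. At midday its libraries held 867.6, 516.9 and 724.3 CPM on day 0, 595.8, 661.1 and 633.0 on day 4, 411.5, 460.2 and 613.8 on day 9, 302.0, 440.2 and 281.4 on day 12, and 521.6, 520.2 and 408.3 after re-watering. At midnight they held 208.7, 263.3 and 371.1 CPM on day 0, 264.4, 291.5 and 299.5 on day 4, 185.1, 168.5 and 177.1 on day 9, 158.6, 167.3 and 157.1 on day 12, and 212.0, 188.5 and 205.8 after re-watering. The day 12 libraries lay below those of day 0 at both times, whereas the day 9 and day 0 midday libraries overlapped. The group means spanned a 4.37-fold range, against 637.9-fold or more for the DIC loci.

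On day 12 DTC fell by 1.04 ± 0.20 at midday (adjusted p = 7.61e-05), which is 2.06-fold, and by 0.80 ± 0.20 at midnight (adjusted p = 0.00118). On day 9 it fell by 0.67 ± 0.20 at midnight (adjusted p = 0.00691), a call that did not hold without day 0 midnight replicate 3 (-0.41, adjusted p = 0.0930). The day 9 midday fall of 0.51 ± 0.20 (adjusted p = 0.0384) was lost without day 0 midday replicate 1 or 3 (adjusted p = 0.223 and 0.088) and without day 9 midday replicate 1 or 2 (0.168 and 0.114). Without day 0 midday replicate 1, which had the highest DTC level of all libraries, the value was -0.32. After re-watering DTC rose from day 12 at midday by 0.50 ± 0.20 (adjusted p = 0.0378), and this too was lost without day 12 replicate 1 or 3 (0.139 and 0.170) or re-watered replicate 1 or 2 (0.1005 and 0.111). Against day 0 the re-watered values were -0.54 ± 0.20 at midday and -0.48 ± 0.20 at midnight (adjusted p = 0.091 and 0.0904).

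The midnight level of DTC relative to midday was -1.32 ± 0.20 on day 0, -1.14 ± 0.20 on day 4, -1.48 ± 0.20 on day 9, -1.08 ± 0.20 on day 12 and -1.26 ± 0.20 after re-watering, and each difference was called. Its interaction was -0.16 ± 0.28 on day 9, 0.24 ± 0.28 on day 12 and 0.06 ± 0.28 after re-watering (adjusted p = 0.721, 0.545 and 0.925). These values do not show that the day and night responses were alike. With library totals left unscaled, the median over all loci moved from 0.06 to 0.74 for midnight against midday on day 0 and from 0.03 to 0.34 on day 12. The DTC values were then -0.64 and -0.76, still called. The unscaled day 12 interaction of DTC was -0.12, and that after re-watering -0.20.

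The 5 contigs that carried the ID of DTC added up to 0.903 to 1.02 times the locus and did not move together. Tt5773, the most abundant, had 363 RPM at midday and 92.0 at midnight of day 0, and 219.3 and 87.7 RPM on day 12. It made up 66.4% of the DTC contig sum at midday of day 0 and 29.5% at midnight. Tt59719_3 had 67.3 RPM at midday and 87.3 at midnight of day 0, and 6 and 18.3 RPM on day 12. In these unscaled RPM the contig that was highest was higher by day. Tt59719_3 was not, except after re-watering, when it had 55.7 RPM at midday and 50.3 at midnight. The DTC locus had 534.4 RPM at midday and 342.2 at midnight of day 0, against 702.9 and 281.0 CPM with TMM scaling. The direction of Tt59719_3 between day and night therefore holds for unscaled RPM only. Tt59914_2 went from 41.7 to 22.0 RPM at midday and from 38.3 to 10.3 RPM at midnight between days 0 and 12.

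In the authors' deposited table, the midday changes on day 12 were -0.98 for Tt5773 (q = 0.00198), -3.67 for Tt59719_3 (q = 1.16e-31), -1.26 for Tt59914 (q = 5.61e-08), -1.17 for Tt59914_2 (q = 2.64e-12) and 0.21 for Tt59719 (q = 0.534). For midnight the authors' deposited table lists -0.04 for Tt5773 (q = 0.934), -2.18 for Tt59719_3 (q = 4.80e-13), -1.86 for Tt59914_2 (q = 3.30e-25), -0.61 for Tt59914 (q = 0.0123) and -1.13 for Tt59719 (q = 1.41e-05). The midnight fall of the DTC locus on day 12 thus stood beside a Tt5773 value near 0 and lower values of the other 4 contigs. After re-watering the same authors' deposited table lists no DTC contig at midday with a q under 0.05, the smallest being 0.0577 for Tt5773. At midnight it lists -0.86 for Tt59719_3 (q = 0.0175) and -0.57 for Tt59914_2 (q = 0.00353), while the others had a q of 0.106 or more. For the DTC locus the authors list -0.57 at midday (q = 0.0439) and -0.50 at midnight (q = 0.0503).

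**Figure D4:**
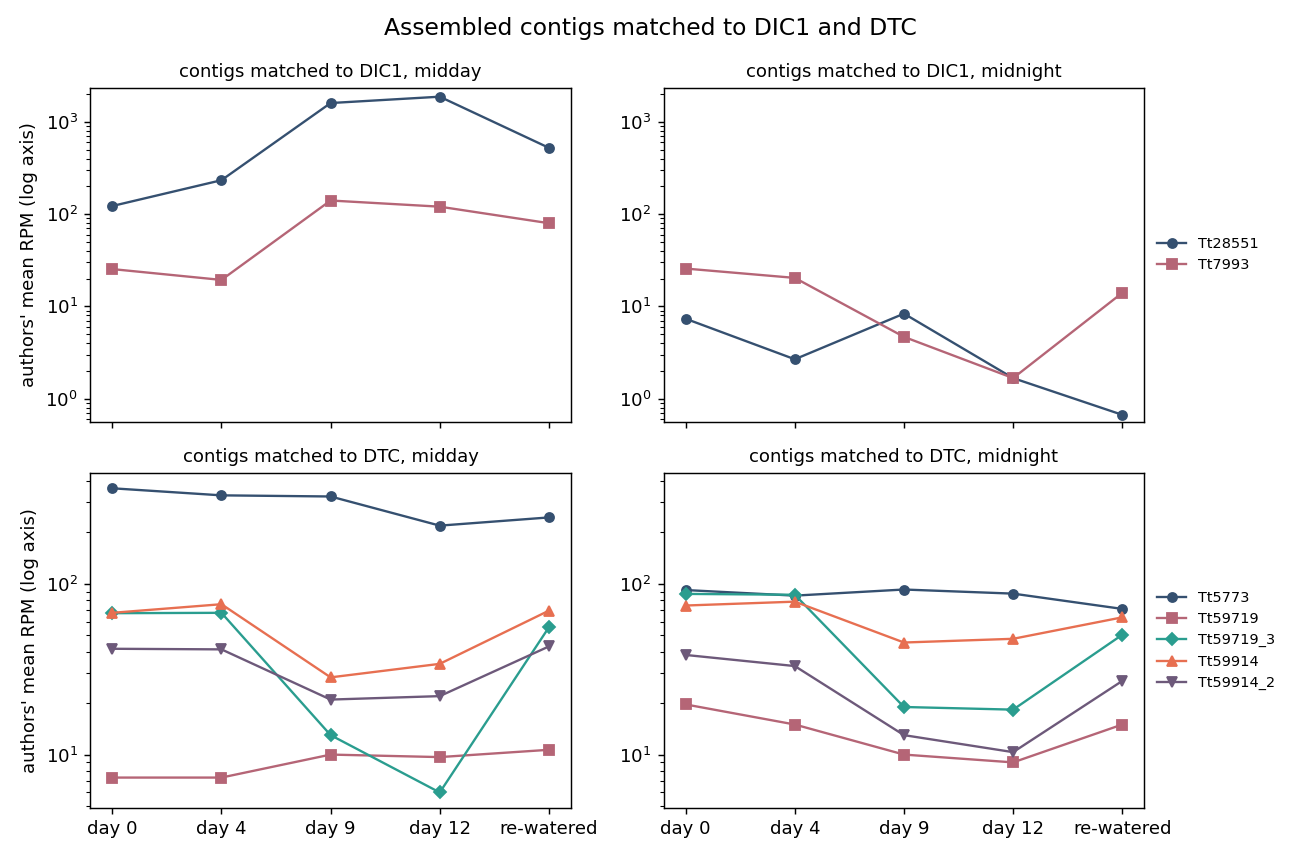
Authors' mean RPM per group (log axis, no error given) of the 2 contigs matched to DIC1 (top) and the 5 matched to DTC (bottom), by stage, at midday (left) and at midnight (right). Tt28551 reaches 1874 RPM at midday of day 12 while Tt7993 stays at 140.3 RPM or below, and among the DTC contigs Tt59719_3 drops to 6 RPM at midday of day 12 while Tt5773 stays at 219.3 RPM.

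Set per kilobase of coding length, the contigs allow levels to be compared between genes. The DIC1 contigs summed to 152.3 RPM per kilobase at midday of day 0 and the DTC contigs to 606.1. At midday of day 12 the order was the other way, 2053 against 322.3 RPM per kilobase. At midnight of day 12 the DIC1 contigs had 3.46 and the DTC contigs 191.7 RPM per kilobase. The 3 ALMT9 contigs summed to between 2.47 and 7.98 RPM per kilobase in all 10 groups. Single contigs lay lower, the longest, Tt1664, between 0.547 and 2.37. The others have 651 and 861 coding bases against 1827 for Tt1664. If they are parts of 1 transcript, the sum overstates the ALMT9 level, and this was not tested. DTC was thus the higher carrier on days 0 and 4 and in all midnight groups, and the DIC transcripts were higher at midday of days 9, 12 and after re-watering, in authors' means without error.

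TDT, the tonoplast dicarboxylate transporter, had counts in 13 of 30 libraries, 344 in all, and nearly all of them on day 12. All libraries of day 0, of day 4 at midday and of re-watered plants at midday had 0 counts, day 4 at midnight had 0, 1 and 0, and re-watered midnight 0, 0 and 1. On day 9 the libraries had 4, 0 and 1 counts at midday and 2, 4 and 3 at midnight. On day 12 they had 49, 9 and 38 counts at midday, or 9.22, 1.36 and 6.04 CPM, and 152, 28 and 52 counts at midnight, or 19.7, 3.37 and 4.99 CPM. All 6 day 12 libraries lay above every other library, and replicate 2 was the lowest at both times. A count of 0 allows up to 3 counts, which is 0.288 to 0.627 CPM in a single library, for counting error only.

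Against day 0, where the floor of 3 counts over the group is 0.165 CPM at midday and 0.122 CPM at midnight, TDT on day 12 was at least 33.6-fold higher at midday. At midnight it was at least 76.9-fold higher. Leaving out 1 day 12 library gave bounds of 22.4 to 46.3 at midday and of 34.4, without replicate 1, to 101.4 at midnight. On day 9 the rise was not called at either time (adjusted p = 0.145 at midnight). From day 9 to day 12 the fitted differences were 4.30 at midday and 4.59 at midnight. They are descriptions only, because TDT passed the filter through its counts on day 12. The midday value was 5.91 without day 9 midday replicate 1 and 3.65 without replicate 2, and the midnight value was 3.45 without day 12 midnight replicate 1. After re-watering TDT was at least 38.4-fold lower than on day 12 at midday. At midnight the sums were 232 counts on day 12 and 1 after re-watering, a ratio of 212.3 with an exact 95% counting interval from 37.7 to 8421. The fitted difference was -7.29, and -6.16 without day 12 midnight replicate 1, which held 152 of the 232 counts. It was -9.02 without re-watered midnight replicate 3, which held the 1 count of its group, and then it is no bound. Midnight and midday of day 12 had overlapping libraries and a difference of 0.76 ± 0.61 (adjusted p = 0.306).

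The level of TDT on day 12 was low. Its 5.54 ± 3.95 CPM at midday and 9.35 ± 8.98 CPM at midnight of day 12 (SD, n = 3) have an SD close to the mean, and no contig analysed here carried its ID, so no level per length can be given. Beside it, the summed level of the 6 guard cell markers in the table was 31.0 to 42.1 CPM at midday of day 12 and 104.3 to 118.7 CPM at midnight, against 46.4 to 57.9 and 43.3 to 63.5 CPM on day 0, with none of the 6 at 0. The summed level of the 7 vascular markers was 550.0 to 602.2 CPM at midday and 393.6 to 424.9 CPM at midnight of day 12, against 704.0 to 818.9 and 788.3 to 909.4 CPM on day 0. Both sums were lower at midday of day 12 than at midday of day 0, and at midnight the guard cell sum was higher and the vascular sum lower. Within the lists the markers were mixed. At midday of day 12, 2 of the 6 guard cell markers were called higher and 4 lower. Of the 7 vascular markers, 1 was called higher and 5 lower there, beside 55.0% of all loci. At midnight 1 of the 7 was called higher and 4 lower, beside 57.6% of all loci. In the guard cell sum at midnight, GORK, a potassium channel, rose by 3.51 ± 0.32 and HT1, a kinase, fell by 0.83 ± 0.20, while the other 4 markers were not called and the median of the 6 was -0.29. Their part in the results was not tested. The mesophyll markers summed to 158484 to 239718 CPM at midday of day 0 and to 92042 to 96228 CPM at midday of day 12, where 3 of 5 were called, all lower, beside 55.0% of all loci. At midnight of day 12, 1 of the 5 was called higher and 2 lower, beside 57.6% of all loci.

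ALMT9, the vacuolar channel, was low in every group. Its libraries ran from 2.79 to 4.29 CPM at midday of day 0 and from 2.99 to 6.80 CPM at midnight, with a median of 3.40 and 3.90 CPM. On day 12 they ran from 3.97 to 6.63 CPM at midday and from 5.66 to 6.81 CPM at midnight, with medians of 4.70 and 6.34 CPM. Every group overlapped its neighbour in the order of the means, and the highest mean was 1.82 times the lowest. Of its 21 comparisons edgeR called 0, and 0 had an unadjusted p under 0.05 (smallest 0.058). DESeq2 and limma-trend called 0 of the 17 comparisons other than interactions. Against day 0 the differences on day 12 were 0.54 ± 0.32 at midday and 0.45 ± 0.28 at midnight (adjusted p = 0.15 and 0.176), and midnight against midday it was 0.22 to 0.39 over the 5 stages. Without day 0 midnight replicate 3, the midnight differences on days 9 and 12 were 0.86 and 0.85 and were called (adjusted p = 0.0226 and 0.0191). With unscaled library totals, midnight against midday was called on day 0 (1.06, adjusted p = 0.00588) and day 4 (0.82, adjusted p = 0.0324), where the medians of all loci stood at 0.74 and 0.52. Unscaled, it was also called against day 0 at midday on day 9 (0.83, adjusted p = 0.0389) and day 12 (0.78, adjusted p = 0.0449), beside medians of all loci of 0.26 and 0.32.

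The 3 ALMT9 contigs had 4.33 RPM or less in every group. For the longest, Tt1664 with 1827 coding bases, the authors' deposited table lists -1.63 at midnight of both day 9 (q = 0.000276) and day 12 (q = 0.000175). The ALMT9 locus itself had 0.45 ± 0.28 in both of these comparisons in the edgeR fit, which is the opposite sign and was not called. The sum of the 3 contigs was 1.44 times the locus at midnight of day 0 and 0.467 times at midnight of day 12. Contigs and locus thus did not follow each other here as they did for the DIC loci and DTC. The replicate values behind the contig means look rounded before averaging, and at 4.33 RPM or less such rounding can move these ratios.

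Of the other ALMT family members, 9 of 13 were in the table and 7 were tested. At midday of day 12, 2 of the 7 rose and 2 fell against day 0, beside 55.0% of all loci called, with a median of 0.24 beside 0.08 over all loci. ALMT1, which in Arabidopsis roots releases malate to the soil, rose by 4.33 ± 0.42 (adjusted p = 4e-09), from 0.992 ± 0.332 to 20.3 ± 9.25 CPM (SD, n = 3). On the night of day 12 it stood at 0.136 ± 0.145 CPM, which relative to midday was -6.91 ± 0.52 (adjusted p = 3.07e-11). ALMT12, a guard cell anion channel of Arabidopsis, fell by 2.76 ± 0.34 at midday. At midnight of day 12, 3 of the 7 rose and 2 fell, beside 57.6% of all loci called, with a median of -0.68 beside 0.01 over all loci. The risers were ALMT6 (0.82 ± 0.16), ALMT4 (0.65 ± 0.18) and ALMT3 (0.83 ± 0.25). ALMT6 and ALMT4 are vacuolar membrane channels in Arabidopsis guard cells. The contig matched to ALMT4, Tt40068 with 1791 coding bases, had 81.3 RPM at midnight of day 0 and 139 RPM at midnight of day 12, with a log2 change of 0.81 in the authors' deposited table (q = 4.77e-07). It had 3.97 to 4.93 times the RPM of the ALMT4 locus in each group.

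Of other carriers of the mitochondrial inner membrane, all 19 were tested. At midday of day 12, 3 rose and 6 fell against day 0, beside 55.0% of all loci called, with a median of -0.20 beside 0.08 over all loci. SFC1, the succinate-fumarate carrier, rose by 1.67 ± 0.23 (adjusted p = 6.02e-07), from 21.0 ± 2.41 to 66.7 ± 12.8 CPM. ADNT1, an adenine nucleotide carrier, fell by 0.70 ± 0.12 and NDT2, an NAD carrier, by 0.77 ± 0.18. On the night of day 12, 2 of the 19 rose and 8 fell, beside 57.6% of all loci called, among them BOU (-2.73 ± 0.36), a carrier needed in photorespiration, the uncoupling protein UCP2 (-1.23 ± 0.16) and the pyruvate carrier subunit MPC1 (-0.98 ± 0.15), with a median of -0.17 beside 0.01. Midnight against midday on day 12, 4 were higher and 11 lower, beside 54.7% of all loci called, with a median of -0.40 beside 0.03, SFC1 at -2.20 ± 0.23 and the uncoupling protein UCP3 at 1.83 ± 0.23. The interaction on day 12 was -2.22 ± 0.32 for SFC1 (adjusted p = 6.57e-06), the same sign as in the DIC loci and smaller in size, and the difference between SFC1 and the DIC loci was not tested.

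The enzymes of mitochondrial malate and citrate conversion had 14 of 20 members tested. At midday of day 12, 5 rose and 2 fell against day 0, beside 55.0% of all loci called, with a median of 0.08 beside 0.08 over all loci. NAD-ME1, a subunit of NAD-malic enzyme, rose by 0.53 ± 0.12 (adjusted p = 0.000477), the 2-oxoglutarate dehydrogenase subunits OGDH2 and OGDH1 by 0.85 ± 0.13 and 0.77 ± 0.14, and FUM1, the fumarase, fell by 1.18 ± 0.12. At midnight of day 12, 0 rose and 9 fell, beside 57.6% of all loci called, with a median of -0.50 beside 0.01, led by FUM1 (-1.34 ± 0.12) and SDH1-1, the flavoprotein subunit of succinate dehydrogenase (-1.76 ± 0.18). Midnight against midday on day 12, 8 were lower and 0 higher, beside 54.7% of all loci called, with a median of -0.53 beside 0.03. SDH1-1 was at -2.94 ± 0.18, the aconitase ACO3 at -3.55 ± 0.25, and the malate dehydrogenase MMDH1 at -1.55 ± 0.17. The day 12 interaction was called lower for 9 of the 14, beside 33.8% of all loci called in either direction, with -2.21 ± 0.24 for SDH1-1 (adjusted p = 1.24e-07).

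The plastid dicarboxylate translocators, which exchange malate across the chloroplast envelope, had 2 of 3 members tested. The midnight level of DIT1 relative to midday was -2.31 ± 0.35 on day 0 and -1.72 ± 0.34 on day 12, with -0.01 ± 0.33 against day 0 at midday of day 12. DIT2_2 fell by 1.26 ± 0.30 at midday of day 12 (adjusted p = 0.00102). The 2 medians were -0.64 at midday of day 12 against day 0 and 0.14 at midnight, beside 0.08 and 0.01 over all loci.

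**Figure D5:**
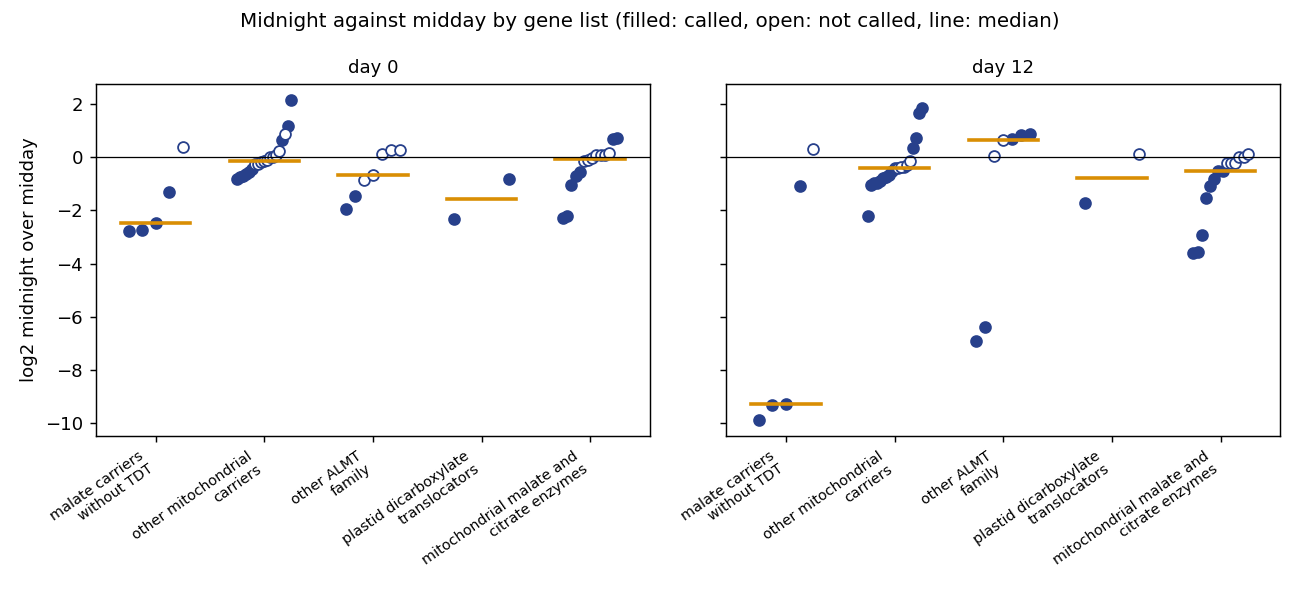
Log2 midnight over midday of each tested locus (points, filled where called, line at the median) for the malate carriers without TDT and for the other carriers, the other ALMT members, the plastid translocators and the mitochondrial enzymes, on day 0 (left) and day 12 (right). On day 12 the DIC loci lie at -9.27 to -9.88, the other carriers have a median of -0.40 and ALMT1 lies at -6.91.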

How the data were processed

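Leaf polyA RNA was sequenced by the authors on a HiSeq 2000 in single reads of 150 bp with 12 libraries per lane, per the labels' protocols, with no lane given for a library. CASAVA 1.8.2 and DESeq2 (version not given) are named in the submitters' processing notes. Reads were placed in protein space with BLAT on a reduced TAIR10 set and counted at their best match, per the file headers. The deposited raw counts per locus and library are what was tested. The deposited contig table holds the authors' mean RPM per group, and the replicate values look rounded before averaging. The log2 fold changes and q-values of both deposited tables are the authors' own. How reads were mapped to contigs was not given in the sources used here. The 6 paired-end libraries were not analysed here.

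Counts were tested with edgeR 4.0.16 in R 4.3.3: filterByExpr (minimum count 10), TMM, a robust quasi-likelihood fit with 1 coefficient for each of 10 groups, 20 residual degrees of freedom and a biological coefficient of variation of 0.173. The 21 contrasts were adjusted one by one over 14052 loci by Benjamini-Hochberg, two-sided, and called under 0.05. With 3 libraries against 3, an exact permutation test of 1 locus cannot pass that threshold. On data simulated for day 9 against day 0 at midday over 14052 loci, 34% of 1.5-fold, 62% of 2-fold and 100% of 4-fold changes were recovered. Far fewer loci were changed in the simulation than the 44.5% called in the data. The adjustment of p over all loci depends on that share, so the rates do not give the recovery in the real comparison. The changed loci were drawn only from those over 5 CPM at midday of day 0. The rates thus do not cover lower levels, such as those of ALMT9 and TDT at midday of day 0 or of the DIC loci at midnight of day 12. Intervals and floors of 3 counts cover counting error only.

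The members, the gene lists and the rules were chosen with earlier results of these data known. Every member is named, the called list members with the 4 smallest adjusted p of a contrast may be, and so may the 5 loci most like a member. Alternatives were other scalings, filters and thresholds, DESeq2 1.42.0, limma-trend (limma 3.58.1), only the groups compared, a replicate block and each library left out. Unscaled totals, and the fit without both libraries least like their groups, were added after seeing the data. Replicate numbers did not pair libraries. No 2 libraries were identical. No sequence was used.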

Additional observations from a re-analysis of the deposited data

Results flagged for a closer look

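For 9 results, the response against day 0 differed between midnight and midday by a test of the difference itself, the interaction term of the edgeR fit. On day 9 the difference, midnight change minus midday change, was -4.83 for DIC1, -4.45 for DIC2 and -5.23 for DIC3 (adjusted p = 5.53e-07, 5.51e-06 and 1.57e-08). On day 12 it was -6.60 for DIC1, -6.51 for DIC2 and -7.39 for DIC3 (adjusted p = 8.77e-09, 4.13e-08 and 2.15e-10). After re-watering it was -3.19 for DIC1, -2.87 for DIC2 and -2.89 for DIC3 (adjusted p = 0.000853, 0.00382 and 0.000308). Since reads of 1 gene can be divided among the 3 loci, the 9 values may not be 9 separate measurements. The summed DIC counts had interactions of -4.72, -6.68 and -2.99 at these 3 stages. With 3 libraries in each group, no result was flagged for a single library far from the rest. Libraries were only ranked by their mean r with their group, and both least like their groups were left out in an alternative.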

How the results depend on the processing

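Of 107 values of single members, 64 were called, 49 of these held under every alternative and 0 turned sign. These tallies include TDT, which passed the filter through its counts on day 12. Of the 43 that were not called, 14 turned sign and 14 were called somewhere. DIC1, day 12 against day 9 at midday, was -0.020 with RLE scaling and with DESeq2, -0.010 with upper-quartile scaling and -0.013 with only the groups compared. Unscaled totals gave -0.065 for DTC, day 4 against day 0 at midnight, 0.063 for ALMT9, day 12 against day 9 at midnight (0.037 with limma-trend), and -0.12 and -0.20 for the DTC interactions on day 12 and after re-watering. Without both libraries least like their groups, ALMT9 was -0.024 for re-watered against day 0 at midday and -0.014 for midnight against midday on day 0, and the DTC interaction on day 9 was 0.091. Leaving out 1 library gave, for ALMT9, -0.32 to 0.079 and -0.21 to 0.33 for day 12 against day 9 at midday and midnight, -0.015 to 0.60 and -0.13 to 0.43 for midnight against midday on days 0 and 9, and -0.024 to 0.42 and -0.0020 to 0.62 for re-watered against day 0 at midday and midnight. It gave -0.026 to 0.074 for DIC1, day 12 against day 9 at midday. It gave -0.34 to 0.023 and -0.18 to 0.27 for DTC, day 4 against day 0 at midday and midnight, and -0.34 to 0.091 and -0.14 to 0.32 for its interactions on day 9 and after re-watering. For TDT, midnight against midday, it gave -0.37 to 1.33 on day 12 and -0.17 to 2.08 on day 9.

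Counts of members called, TDT included, moved by more than 1.5 times in 4 of 21 comparisons. TDT passed the filter through its counts on day 12, so its calls in comparisons of day 12 are no support for a change. Re-watered against day 0 at midnight, 1 member was called, and 0 at an adjusted p under 0.01 or with only the groups compared, 2 unscaled, 3 with DESeq2 and 0 to 1 without a library. Day 12 against day 9 at midday, 1 was called, which was TDT, and 0 of the 5 other members were. The count with TDT was 0 at 0.01 or with only the groups compared, 2 with DESeq2 and 0 to 2 without a library. At midnight 4 were called, which were TDT and 3 of the 5 other members. The count with TDT was 1 at 0.01, unscaled or with only the groups compared, and 1 to 4 without a library. Re-watered against day 0 at midday, 3 were called and 0 with only the groups compared, where 0 of all loci were called too. Smaller moves without a library were from 3 to 4 for day 9 at midday, 2 to 4 for day 9 at midnight, 5 to 6 for day 12 at midnight and 3 to 4 for re-watered at midday, each against day 0, and 4 to 5 and 3 to 4 for re-watered against day 12 at midday and midnight. Of the 30 places in the lists of loci most like a member, 5 for each member, 2 stayed by Spearman's rho and 13 over libraries. Some loci held a place for more than 1 member, among them the DIC loci themselves.

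With the replicate block, TDT on day 9 at midnight was called (4.58, adjusted p = 0.0274) and DIC3, day 12 against day 9 at midnight, was not (-1.91, adjusted p = 0.0583). Same-numbered libraries deviated from their group means with a mean r of 0.00244 over 135 pairs, and 13 of 30 libraries correlated best with their own number. Over all loci, the calls for re-watered against day 0 at midday ranged from 0 to 1975 around 962, and for day 4 against day 0 at midnight from 0 to 1131 around 26. Midnight against midday on day 0, unscaled totals called 8413 loci higher and 925 lower, against 3220 and 2955. Depth limits TDT, ALMT9 and the midnight DIC values, and the cause of these shifts was not tested.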

Other observations

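The loci whose levels followed a member most closely were ranked by Pearson's r of log2 CPM over the 10 group means, among loci with a mean of at least 10 CPM. This is a description over groups that share libraries. Beside the other DIC loci, DIC1 and DIC2 were most like AT5G19860, a protein of unknown function (r = 0.994 with each), followed by AT1G07350, an RNA-binding protein (0.993 and 0.992). For DIC3 the order of these was the other way (0.997 for AT1G07350 and 0.992 for AT5G19860). AT2G36530, the glycolytic enzyme enolase, was among the 5 of DIC1 only (0.991). DIC2 and DIC3 had AT3G10130, a SOUL heme-binding protein, among their 5 (0.992 and 0.991). DTC was most like the stromal ascorbate peroxidase AT4G08390 and the thylakoidal one AT1G77490 (0.983 each), which remove hydrogen peroxide in the chloroplast, followed by subunit G of photosystem I, AT1G55670 (0.978). TDT was most like alpha-galactosidase 2, AT5G08370 (0.938), and had beta-amylase 4, AT5G55700, among its 5 (0.927). Nearly all TDT counts were on day 12, so these values rest on the day 12 groups. By Spearman's rho the 2 loci ranked 171 and 644, and by r over the 30 libraries 2 and 11. ALMT9 was most like histidine kinase 1, AT2G17820 (0.914). Over the 30 libraries that r was 0.648, at rank 45, and by Spearman's rho the rank was 132. The ALMT9 group means spanned only 1.82-fold and edgeR called none of its comparisons, so this likeness is weakly founded.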
